A study of Rattus norvegicus with 4 samples.

Results

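Mbp, Mag, Mog, Cnp, Mobp, Ugt8, Gpr17, Gpr37 and Enpp6 are 9 genes of myelin and of maturing oligodendrocytes, the cells that wrap axons in the central nervous system. They were taken by gene symbol from the deposited count table, where each had 1 row among 21648 gene identifiers, and all 9 passed the low-count filter that left 12162 genes for testing. The table holds 4 bulk RNA libraries of neurons cultured from the cortex of rats at embryonic day 18 (E18), a product of the supplier BrainBits. There were 2 libraries of cells given topotecan and 2 of cells given the solvent DMSO. Both groups were plated in STEMdiff Neural Induction Medium and moved after 24 hours to BrainPhys medium with the SM1 supplement, so the groups differ only in the agent as far as the labels say. Topotecan inhibits topoisomerase I, the enzyme that nicks DNA to relieve the twist built up by transcription, and the stated purpose here was to reduce long gene expression. No dose or duration is stated in the labels, and the strain, the number of embryos pooled and whether the 2 libraries of a group came from separate cultures are not stated either. P-values therefore measure only the spread between these libraries, which may be technical.

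Oligodendrocytes arise from dividing progenitors that carry the PDGF receptor Pdgfra. Cells that leave this state pass through a committed, premyelinating stage, and in rodents Gpr17 marks that stage and Enpp6 marks newly formed oligodendrocytes in mice. Mature cells then make large amounts of the proteins and lipids that compact the myelin sheath. The transcription factors Olig2, Sox10 and Myrf drive this sequence.

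The genes differ widely in size. Cnp and Gpr17 span 6.56 and 6.92 kb, Mog, Mag and Gpr37 14.6, 15.4 and 22.1 kb, Mobp and Ugt8 30.1 and 68.3 kb, and Mbp and Enpp6 111 and 128 kb, in the RefSeq annotation of the assembly GRCr8. RefSeq promoter windows of 300 bases, from 250 before to 50 after a start, were found for 8 of the 9 genes, Mog being the other. They were searched on both strands for the SOX core ACAAAG, for CTGGNAC, a form of the MYRF motif, and for the E-box CAGCTG. At least 1 SOX core was found at the first listed start of 4 genes, Mobp, Cnp, Mag and Enpp6, where 18.8% of all 33469 windows in the same table hold one. The Mobp window held 8 of them, a number reached by 0.00896% of all windows. All 8 lie in a T-rich, repetitive stretch at the 5′ end of that window, so they are not independent matches. Mobp was singled out for this number after the search. The MYRF form was found in the first windows of 5 genes, Mbp, Mag, Cnp, Gpr37 and Enpp6 (18.2% of all windows), and the E-box in those of Cnp and Enpp6 (15.1% of all windows). In the first window of Ugt8 and in that of Gpr17 none of the 3 was found, and Mbp has a second listed start, whose window holds 1 SOX core and 1 E-box. A match is a run of letters, not a shown binding site. The 4 windows with a SOX core are shown together with that of Gpr37, the gene of the 9 with the smallest change, read 5′ to 3′ on the gene's strand, with every match in capitals. In Enpp6 the E-box and the MYRF form share 1 base.
Mobp, chr8:128746982-128747281, plus strand: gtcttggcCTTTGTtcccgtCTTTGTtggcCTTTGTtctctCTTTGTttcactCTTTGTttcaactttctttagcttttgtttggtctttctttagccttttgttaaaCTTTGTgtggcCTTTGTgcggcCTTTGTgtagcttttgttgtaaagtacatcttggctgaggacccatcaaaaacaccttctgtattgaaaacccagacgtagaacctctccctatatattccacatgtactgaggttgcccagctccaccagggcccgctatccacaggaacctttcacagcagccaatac
Cnp, chr10:86011254-86011553, plus strand: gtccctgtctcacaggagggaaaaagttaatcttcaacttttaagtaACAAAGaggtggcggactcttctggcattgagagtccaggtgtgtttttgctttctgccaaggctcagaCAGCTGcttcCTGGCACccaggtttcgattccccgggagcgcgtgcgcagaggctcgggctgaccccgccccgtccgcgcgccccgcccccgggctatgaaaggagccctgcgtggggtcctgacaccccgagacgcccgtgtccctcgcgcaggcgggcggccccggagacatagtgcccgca
Mag, chr1:95290995-95291294, minus strand: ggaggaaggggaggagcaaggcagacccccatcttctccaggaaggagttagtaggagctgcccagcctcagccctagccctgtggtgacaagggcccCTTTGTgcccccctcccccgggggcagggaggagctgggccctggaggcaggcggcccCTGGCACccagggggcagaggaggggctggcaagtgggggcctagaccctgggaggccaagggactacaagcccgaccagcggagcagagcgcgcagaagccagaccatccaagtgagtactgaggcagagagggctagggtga
Enpp6, chr16:52026679-52026978, minus strand: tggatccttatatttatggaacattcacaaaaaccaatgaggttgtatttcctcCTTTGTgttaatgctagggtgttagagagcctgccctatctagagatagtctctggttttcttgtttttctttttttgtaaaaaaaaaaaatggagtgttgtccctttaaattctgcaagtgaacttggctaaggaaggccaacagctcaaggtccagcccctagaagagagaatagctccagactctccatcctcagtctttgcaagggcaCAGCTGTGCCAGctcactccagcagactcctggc
Gpr37, chr4:55126371-55126670, minus strand: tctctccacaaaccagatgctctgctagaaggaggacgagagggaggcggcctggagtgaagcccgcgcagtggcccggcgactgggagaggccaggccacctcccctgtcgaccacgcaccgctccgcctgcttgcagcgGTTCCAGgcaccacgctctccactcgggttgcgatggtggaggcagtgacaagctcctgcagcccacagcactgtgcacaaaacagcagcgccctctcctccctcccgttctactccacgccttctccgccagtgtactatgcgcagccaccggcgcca

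Topotecan libraries held far less RNA of these genes than DMSO libraries. Of the 9 genes 8 fell and the remaining one, Gpr37, did not pass the test, which was edgeR's quasi-likelihood F-test with p adjusted by the Benjamini-Hochberg method over all tested genes and a threshold of 0.05. In that test Gpr37 had an unadjusted p of 0.0383 and an adjusted p of 0.0847. Across all 12162 genes 2854 (23.5%) were lower in topotecan and 1970 (16.2%) were higher. The median log2 fold change was -4.46 over the 9 genes and -0.01 over all tested genes. Summed over the 9 genes the level was 121 and 115 CPM in the topotecan libraries, against 2617 and 2530 CPM in the DMSO libraries, where CPM are counts scaled to library size with TMM factors. The topotecan sum was 4.60% of the DMSO sum. In bulk RNA, fewer cells of a type and less RNA per cell cannot be told apart.

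**Figure D1:**
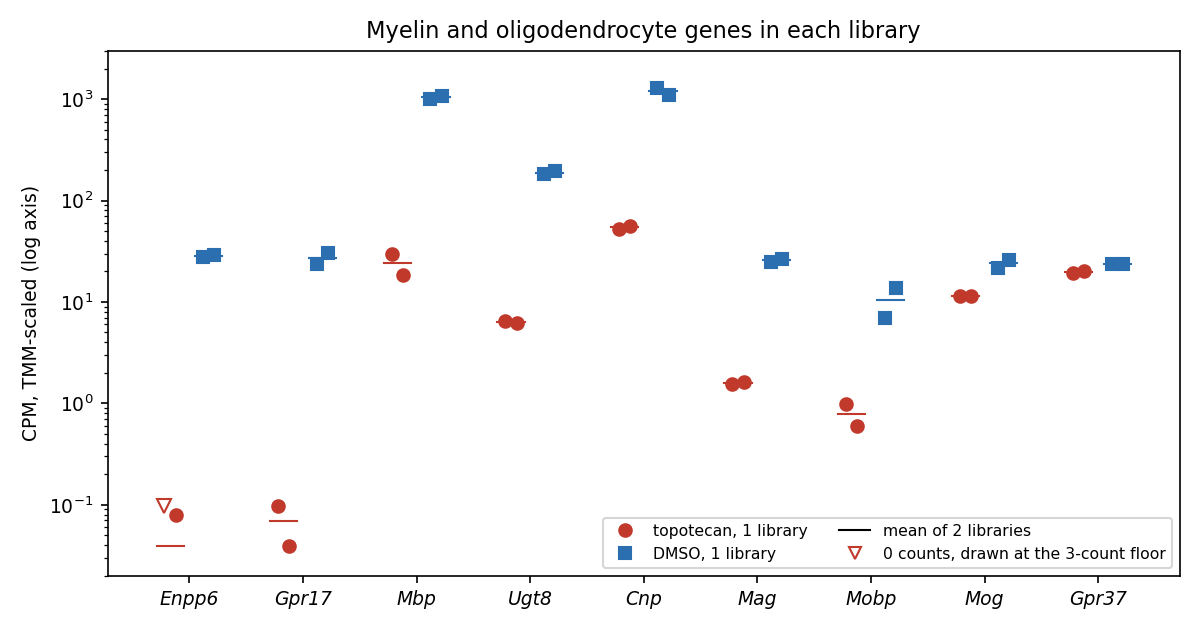
Level of each of the 9 genes in each library, in CPM on a log axis, with topotecan circles left of DMSO squares and a line at each mean of 2 libraries; an open triangle stands for a library with 0 counts, drawn at the level of 3 counts. Enpp6 and Gpr17 sit near the detection floor in topotecan, the Mbp, Ugt8, Cnp, Mag and Mobp circles lie more than a decade below the squares on average, and the Gpr37 circles lie just under the squares.

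The deepest falls were those of the 2 genes of early, premyelinating cells. Enpp6 (ENSRNOG00000009660) codes for a choline-specific phosphodiesterase on the surface of oligodendrocytes. It had 0 and 2 counts in the topotecan libraries, against 761 and 673 counts in the DMSO libraries. Per depth its topotecan sum was 786-fold lower, with an exact 95% binomial interval from 217 to 6501 that covers counting error only. Gpr17 (ENSRNOG00000025745), an orphan receptor that holds back the maturation of committed cells in mice, had 3 and 1 counts in topotecan and 650 and 703 in DMSO. Its ratio was 371-fold lower (interval 145 to 1364), and the 2 intervals overlap. The fitted log2 fold changes were -9.44 (SE 0.34, edgeR adjusted p = 4.8e-11) for Enpp6 and -8.46 (SE 0.32, adjusted p = 6.95e-11) for Gpr17. Without topotecan replicate 1 the Enpp6 value was -8.38 and without topotecan replicate 2 it was -12.6, and the Gpr17 value was -9.23 and -8.03 in the same order. In the fit to all 4 libraries Enpp6 ranked 19th and Gpr17 56th from the lowest fold change among all tested genes. Both passed the low-count filter through the DMSO libraries alone, whereas the other 7 had at least 10 counts in every library.

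Of the structural proteins of myelin, Mbp fell most. Mbp (ENSRNOG00000016516) codes for myelin basic protein, which seals the cytoplasmic faces of the myelin membrane. Its levels were 29.6 and 18.5 CPM in topotecan, against 1010 and 1086 CPM in DMSO. The log2 fold change was -5.44 (SE 0.17, edgeR adjusted p = 9.48e-12), and the topotecan sum was 2.36% of the DMSO sum (counting interval 2.23% to 2.49%). The topotecan libraries, with 909 and 467 counts, differed 1.601-fold from each other in CPM, and both lay far under the DMSO libraries. The table lists 5 transcripts for Mbp and gives 1 count for the gene, so its classic and golli forms were not separated. Cnp (ENSRNOG00000017496) codes for a 2',3'-cyclic nucleotide phosphodiesterase that keeps cytoplasmic channels open in myelin. It had 51.9 and 56.7 CPM in topotecan, against 1295 and 1099 CPM in DMSO, a log2 fold change of -4.46 (SE 0.10, adjusted p = 5.21e-13). At 3023 counts Cnp kept the largest topotecan sum of the 9 genes.

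Mobp (ENSRNOG00000018700) codes for a small basic protein of compact myelin that is made late. Its levels were 0.978 and 0.595 CPM in topotecan (30 and 15 counts), against 6.995 and 13.8 CPM in DMSO (193 and 323 counts). The groups did not overlap, although the DMSO libraries differed 1.98-fold from each other, the widest DMSO gap among the 9 genes. The log2 fold change was -3.68 (SE 0.35, edgeR adjusted p = 1.55e-06). Mag (ENSRNOG00000021023) codes for a sialic acid-binding adhesion protein of the innermost myelin layer that also inhibits axon growth. It had 1.57 and 1.63 CPM in topotecan, against 24.9 and 26.8 CPM in DMSO, a log2 fold change of -4.01 (SE 0.17, edgeR adjusted p = 2.81e-10).

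Ugt8 (ENSRNOG00000009345) codes for the enzyme that adds galactose to ceramide, which makes galactosylceramide, a main lipid of myelin. It had 6.46 and 6.14 CPM in topotecan, against 182 and 196 CPM in DMSO. The log2 fold change was -4.90 (SE 0.11, edgeR adjusted p = 4.57e-13), with replicates within 1.07-fold of each other in both groups. In a list of 13 tested genes of galactolipid and sphingolipid metabolism 7 fell, with a median log2 fold change of -0.32. Across all tested genes 23.5% fell. Fa2h, which hydroxylates the fatty acid of galactosylceramide, fell to 1 and 0 counts in topotecan, against 104 and 110 counts in DMSO. Its summed ratio was 235-fold lower (counting interval 41.7 to 9315). Gal3st1, which sulfates galactosylceramide, fell to 1 and 0 counts in topotecan, against 64 and 36 in DMSO, 110-fold lower (counting interval 19.2 to 4375). Fa2h and Gal3st1 were singled out after their values were seen. Cers2, a ceramide synthase for very long acyl chains, fell by 2.45 on the log2 scale (SE 0.11). Degs1, which completes ceramide in all cells, was at 0.20 (adjusted p = 0.092; -0.01 when scaled to pan-neuronal genes), and Smpd1, a lysosomal sphingomyelinase, at -0.14 (adjusted p = 0.377).

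Mog and Gpr37 kept much more of their counts. Mog (ENSRNOG00000000775) codes for a minor glycoprotein of the outermost myelin layer. It had 11.5 CPM in both topotecan libraries (353 and 289 counts), against 21.9 and 26.2 CPM in DMSO (603 and 612 counts). Its log2 fold change was -1.06 (SE 0.14, edgeR adjusted p = 3.55e-05), and the topotecan sum was 48.2% of the DMSO sum (counting interval 43.7% to 53.0%). Gpr37 (ENSRNOG00000002524) codes for a receptor that slows oligodendrocyte differentiation in mice and is also expressed by neurons. It had 19.2 and 20.2 CPM in topotecan (590 and 509 counts), against 23.9 and 23.8 CPM in DMSO (659 and 556 counts). The groups did not overlap, and the topotecan sum was 82.5% of the DMSO sum (counting interval 75.9% to 89.5%). Its log2 fold change was -0.28 (SE 0.12, edgeR adjusted p = 0.0847, range over the alternatives 0.00818 to 0.395). Scaled to the summed counts of 15 pan-neuronal genes it passed, at -0.48 (adjusted p = 0.00818). In that fit edgeR's prior degrees of freedom were infinite, against 11.3 with TMM, so 1 shared spread stood for the spread of each gene. With TMM and no low-count filter those degrees of freedom were infinite too, and Gpr37 did not pass (-0.26, edgeR adjusted p = 0.136). The parts of the scaling and of the spread estimate in the call were not tested further.

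The files do not say whether counting used the strand, so overlapping genes can share reads. In the RefSeq annotation of GRCr8 the Mog gene overlaps Zfp57, a zinc finger gene of imprinting control. Zfp57 had 1737 and 1460 counts in topotecan, against 1094 and 813 counts in DMSO, and rose by 0.62 (SE 0.11, edgeR adjusted p = 3.88e-04). Zfp57 thus had more counts than Mog in each of the 4 libraries. Gpr17 overlaps Lims2, a gene for an adaptor of integrin adhesions. Lims2 had 1 and 6 counts in topotecan, against 397 and 317 counts in DMSO, a log2 fold change of -6.75 (SE 0.35). Mbp, Mag and Enpp6 overlap genes of long non-coding RNAs, and Ugt8 overlaps a pseudogene, for which no counts were found. Whether reads were shared within any of these overlaps was not tested.

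**Figure D2:**
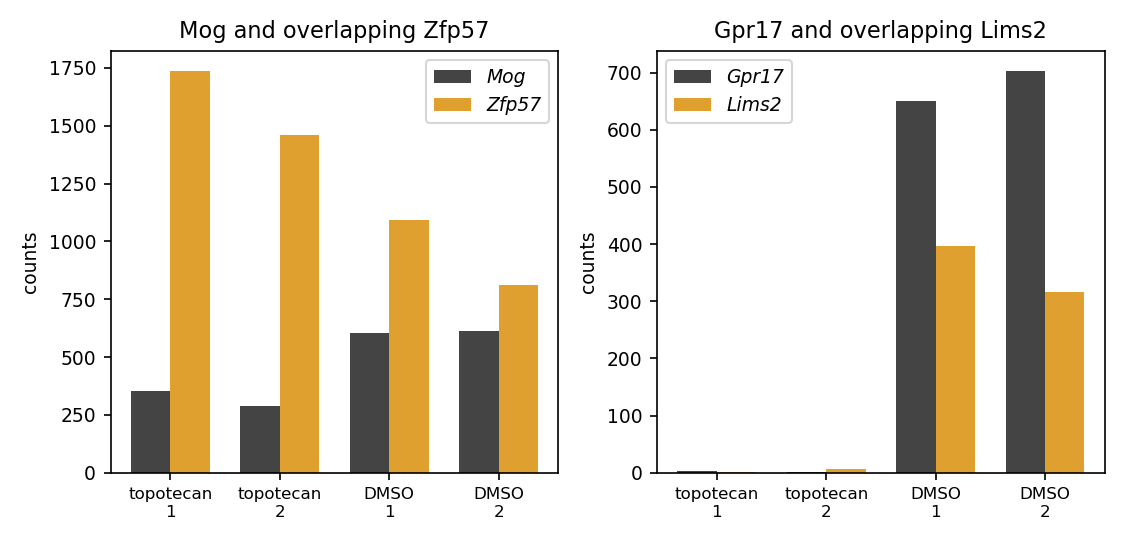
Counts per library of Mog beside Zfp57 and of Gpr17 beside Lims2, the protein-coding genes that overlap them in the RefSeq annotation of GRCr8; bars are single libraries, topotecan left of DMSO. Mog counts were lower and Zfp57 counts higher in topotecan, while Gpr17 and Lims2 had at most 6 counts in topotecan.

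The make-up of the summed counts differed between the groups. Mbp and Cnp together took 67.2% and 65.2% of the 9 genes' counts in topotecan, against 88.1% and 86.4% in DMSO. Gpr37 took 15.8% and 17.5% in topotecan and 0.913% and 0.941% in DMSO, and Mog 9.48% and 9.93% in topotecan and 0.835% and 1.04% in DMSO. The ratio of 2 genes within a library does not depend on its depth or scaling. There were 735 and 705 Mog counts per 100 Mag counts in topotecan, against 87.8 and 97.9 in DMSO. There were 57.1 and 32.6 Mbp counts per 100 Cnp counts in topotecan, against 78.0 and 98.8 in DMSO, so Mbp stood lower relative to Cnp in both topotecan libraries. Ugt8 per 100 Cnp counts was 12.4 and 10.8 in topotecan and 14.1 and 17.8 in DMSO. Mag per 100 Cnp counts was 3.02 and 2.87 in topotecan and 1.92 and 2.43 in DMSO. Mobp per 100 Mbp counts was 3.30 and 3.21 in topotecan and 0.692 and 1.27 in DMSO. With 2 libraries against 2, an exact 2-sided permutation test cannot go below p = 0.333, the value each of these 5 ratios gave. Shares of counts are not levels per length, and transcript lengths were not used here.

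**Figure D3:**
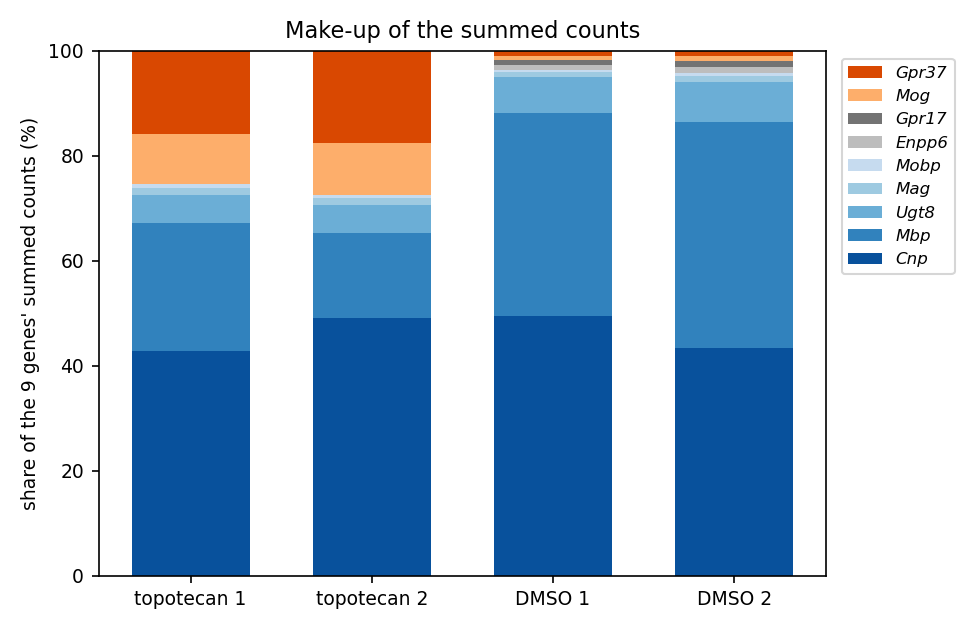
Share of each of the 9 genes in their summed counts, in percent, stacked for each library with topotecan left of DMSO. The dark blue Cnp and Mbp blocks fill 65.2% to 67.2% of the topotecan bars and 86.4% to 88.1% of the DMSO bars, and the orange Gpr37 and Mog blocks at the top are wider in the topotecan bars than in the DMSO bars.

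Gene spans were measured in GRCr8, since the build of the counts is not stated. Of 2726 tested genes under 10 kb 15.6% fell, with a class median of 0.15, and Cnp and Gpr17 lie in that class at -4.46 and -8.46. In the class from 10 to 30 kb 19.4% of 3697 genes fell (median 0.06), and it holds Mag, Mog and Gpr37. From 30 to 100 kb 24.6% of 3414 genes fell (median -0.07), and it holds Mobp and Ugt8. From 100 to 200 kb, the class of Mbp and Enpp6, 31.8% of 1111 genes fell, with a median of -0.19. Mbp is placed there by the span of the whole gene. A transcript from its second listed start, which lies downstream of the first, would span less. The 175 genes of 500 kb or more had a median of -1.20, and 7 of the 9 genes had lower values than that.

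**Figure D4:**
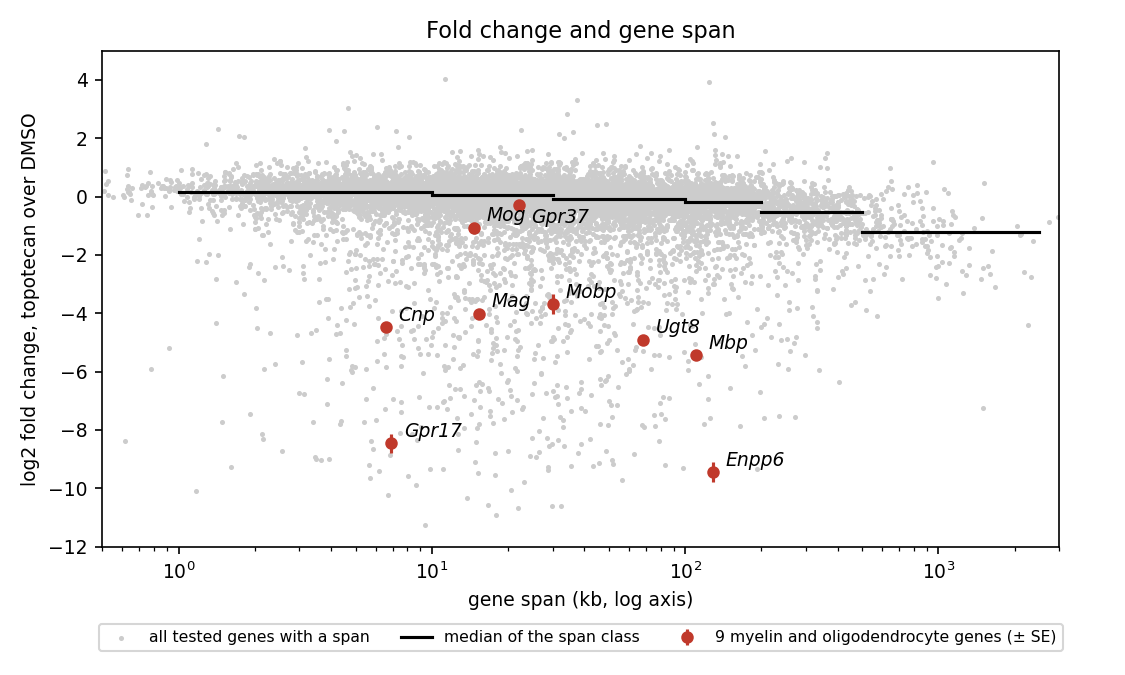
Log2 fold change (topotecan over DMSO) against gene span in kb on a log axis; grey dots are tested genes, black lines the medians of span classes, and red points the 9 genes with their standard errors. 7 of the red points lie at -3.68 or lower, far under the class medians, at spans from 6.56 to 128 kb, and Mog and Gpr37 lie within the grey cloud.

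Other genes of the lineage also fell. Of 22 tested genes of myelin structure and myelination outside the 9, 18 fell and 4 did not pass, with a median log2 fold change of -2.14. Across all tested genes 23.5% fell. Some of the 18 passed the low-count filter through the DMSO libraries alone. Sirt2, a deacetylase abundant in myelin and also made by neurons, fell by 1.95 on the log2 scale (SE 0.08), and Tubb4a, a tubulin of neurons and oligodendrocytes, by 0.38 (SE 0.08). Omg, a myelin glycoprotein that neurons also make, was at -0.01 (edgeR adjusted p = 0.934), and with DESeq2 size factors at 0.0041 (adjusted p = 0.972).

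All 10 tested transcription factors of the lineage fell, beside 23.5% of all tested genes, with a median of -6.45. The median was -4.68 with 2 genes at 0 in topotecan set at the bound that 3 counts over the group allow. Several of the 10, Sox10 and Olig1 among them, had under 10 counts in both topotecan libraries. They passed the low-count filter through the DMSO libraries alone, so they could hardly be called higher. Sox10, which switches on myelin genes, had 0 counts in both topotecan libraries and 318 and 260 in DMSO. Set at a floor of 3 counts over both topotecan libraries, Sox10 was 211-fold lower. By the exact 95% limit of the ratio, which covers counting error only, it was at least 171-fold lower. Myrf, the regulator of late myelin genes, had 2.97 and 2.70 CPM in topotecan and 24.1 and 27.9 CPM in DMSO, a log2 fold change of -3.19 (SE 0.16). Olig1, a lineage factor needed for maturation, fell by 8.12 on the log2 scale (SE 0.23) and Sox8, a relative of Sox10, by 5.85 (SE 0.22). Zfp24, a widely expressed zinc finger factor, fell by 0.67 (SE 0.11), the smallest fall of the 10.

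All 15 tested genes of oligodendrocyte progenitors fell as well (median -5.72), beside 23.5% of all tested genes. Several of the 15 also passed the low-count filter through the DMSO libraries alone. Gpr37l1, the close paralog of Gpr37 that astrocytes and progenitors express, had 0.424 and 0.396 CPM in topotecan, against 205 and 181 CPM in DMSO. Its log2 fold change of -8.86 (SE 0.17, edgeR adjusted p = 8.33e-14) stands beside -0.28 for Gpr37. Psap, the precursor of saposins and a proposed ligand of both receptors, fell by 0.25 (SE 0.09, adjusted p = 0.0312). Enpp2, autotaxin, an ectoenzyme of the same family as Enpp6, fell by 2.68 (SE 0.10), with 17.7 and 17.3 CPM in topotecan and 109 and 116 CPM in DMSO. Tns3 fell by 5.72 (SE 0.17), and Ptprz1, a receptor phosphatase of progenitors and radial glia, fell by 2.72 (SE 0.10).

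Of 7 tested genes of choline and phosphatidylcholine metabolism, the pathway that Enpp6 feeds, 2 fell and 1 rose (median -0.19), beside 23.5% lower and 16.2% higher among all tested genes. Scaled to pan-neuronal genes, 4 fell and 1 rose (median -0.40). Cept1, a transferase that makes phosphatidylcholine, was at 0.07 (adjusted p = 0.598; -0.14 when scaled to pan-neuronal genes). Pcyt1a, the rate-limiting enzyme of phosphatidylcholine synthesis, fell by 0.59 (SE 0.11), and Slc44a2, a choline transporter, by 0.34 (SE 0.10). Chkb, a choline kinase, rose by 0.57 (SE 0.13, edgeR adjusted p = 0.00424). Of 8 tested receptors and partners of myelin inhibitors such as Mag, 3 fell and 1 rose (median 0.13), beside the same shares of all tested genes. Rtn4, the gene of Nogo, fell by 0.56 (SE 0.08), and Lrp1, a large endocytic receptor, by 0.57 (SE 0.10). Lingo1, a co-receptor on axons, rose by 0.40 (SE 0.13, adjusted p = 0.0253), but did not pass when scaled to pan-neuronal genes (0.20, edgeR adjusted p = 0.304). That scaling turned the list's median to -0.07.

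**Figure D5:**
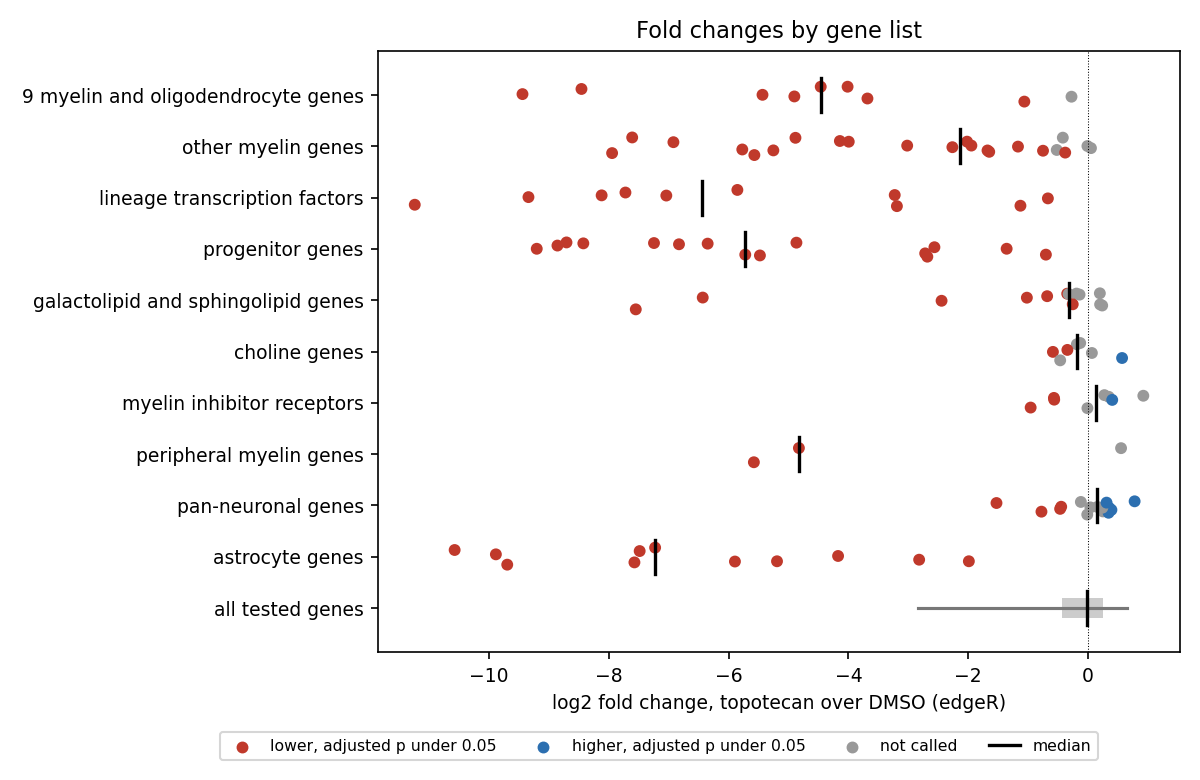
Log2 fold changes of the tested genes of each list, 1 point a gene, coloured by call, with a black line at each median; for all tested genes a bar spans the 25th to 75th and a line the 5th to 95th percentile (-2.84 to 0.66). The 9 genes spread from -9.44 to -0.28, lineage factors, progenitor and astrocyte genes lie mostly below -2, and choline genes lie between -0.59 and 0.57, inhibitor receptor genes between -0.96 and 0.92, and pan-neuronal genes between -1.53 and 0.78.

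Markers of other cells show what else moved in these libraries. All 11 tested astrocyte markers fell (median -7.23), beside 23.5% of all tested genes. Some of the 11 passed the low-count filter through the DMSO libraries alone. The summed level of the 11 was 448 and 477 CPM in topotecan, against 5036 and 5288 CPM in DMSO. The glutamate transporter gene Slc1a3 fell by 7.49 on the log2 scale (SE 0.11) and Glul, glutamine synthetase, by 1.99 (SE 0.07). Of 15 pan-neuronal genes 4 fell and 5 rose (median 0.16), beside 23.5% lower and 16.2% higher among all tested genes. The sum of the 15 was 26299 and 27697 CPM in topotecan, against 24416 and 22322 CPM in DMSO. Scaled to their own sum, 5 of the pan-neuronal genes fell and 1 rose, with a median of -0.06. Of the 4 most abundant, Uchl1, a neuronal ubiquitin hydrolase, rose by 0.78 (SE 0.07) and Tubb3, a neuronal tubulin, by 0.35 (SE 0.09). Stmn2 was at 0.04 and Snap25 at -0.12, neither passing the test. Scaled to the pan-neuronal sum, Tubb3 did not pass (0.15, edgeR adjusted p = 0.265) and Stmn2 was at -0.17. The 4 that fell, named after their values were seen, were Syt1, a calcium sensor of synaptic vesicles, by 1.53 (SE 0.10), Rbfox3 by 0.78 (SE 0.15), Map2 by 0.47 (SE 0.09) and Thy1 by 0.45 (SE 0.07). Microglia markers had summed levels of 0.228 and 0.515 CPM in topotecan and 0.435 and 0.771 CPM in DMSO over 9 matched genes, 5 of which (Aif1, Cx3cr1, Tmem119, C1qa and C1qb) had 0 counts in all 4 libraries. Of 7 matched genes of peripheral myelin, 3 could be tested and 2 fell. Pmp22, which codes for a membrane protein of peripheral myelin, fell by 4.83 (SE 0.14). Of 6 matched fibroblast and mural genes, 2 could be tested. Pdgfrb, a mural cell receptor, had 1 count in each topotecan library, against 88 and 82 in DMSO, 93.2-fold lower (counting interval 25.4 to 776). Lum, a matrix proteoglycan gene, had 78 and 106 counts in topotecan, against 21 and 15 in DMSO, and rose by 2.24 (SE 0.33). The part of these cell types in the values of the 9 genes was not tested.

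The genes whose pattern over the 4 libraries lay nearest to the mean pattern of the 9, by Euclidean distance of log2(CPM + 0.5) centred on each gene's mean, were Spag5 (0.11), Paqr8 (0.12), Mtmr10 (0.18), Decr1 (0.21) and Ctsc (0.24). Their log2 fold changes were -4.60, -4.42, -4.03, -4.03 and -7.12 in the same order. Spag5 averaged 0.692 ± 0.082 CPM in topotecan and 17.04 ± 2.06 CPM in DMSO (SD, n = 2 each). The table has a second identifier of that symbol, which did not pass the test (-0.75, edgeR adjusted p = 0.0728), so the Spag5 values are uncertain.

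Depth was 31181382 and 25459488 counts in the topotecan libraries and 27347410 and 22957786 in the DMSO libraries, so that 3 counts stand for 0.0978 to 0.128 CPM. Scaling to the pan-neuronal genes moved the median of all tested genes to -0.22 and the calls to 4027 lower and 587 higher genes (87.3% lower, against 59.2% with TMM). Under it all 9 genes fell, with a median of -4.67. Over all tested genes, 1208 were higher with topotecan replicate 1 left out and 1260 with topotecan replicate 2 left out.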

How the data were processed

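The deposited table holds raw gene counts of 4 libraries in whole numbers, with Ensembl identifiers and symbols. Per the submitters' processing notes, STAR and edgeR were used, with no version. No source used here gives the build, annotation, counting tool or strand setting. The labels' protocols name a small RNA library kit. The 22641 rows were reduced to 21648 identifiers (792 had repeated rows, equal in every count). Replicates differed by more than sampling noise (chi-square per degree of freedom 9.34 in topotecan, 13.0 in DMSO), so each was kept.

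The test was edgeR 4.0.16 (R 4.3.3; quasi-likelihood F-test, TMM, filterByExpr with minimum count 10 and total 15; treatment only; 2 residual degrees of freedom). Benjamini-Hochberg adjustment ran over 12162 genes, with a threshold of 0.05. Each standard error is the size of the log2 fold change over the root of its F. Ratios of summed counts have exact 95% binomial (Clopper-Pearson) intervals (SciPy 1.17.1). Intervals and floors (3 counts) cover counting error only.

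Besides the 9 genes, 11 lists with 138 entries were used. Of these entries 126 were matched by symbol and 3 through RefSeq (GRCr8). 96.4% of tested genes had a span. The 9 genes and the lists were chosen with earlier results of these data known. Text names all 9 genes, partners, up to 4 of the most abundant genes of a list and the 5 nearest patterns (average log2 CPM at least 2), except some genes that are not reported here. Alternatives were DESeq2 (1.42.0) and its size factors (RLE), limma-voom (limma 3.58.1), pan-neuronal scaling, no filter, a replicate block, leaving out each library and, added later, pan-neuronal scaling with limma-voom.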

Additional observations from a re-analysis of the deposited data

How the results depend on the processing

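The calls of 8 of the 9 genes (all but Gpr37) held in each of the 10 alternatives. In 4 of them (pan-neuronal scaling, no filter and each topotecan library left out) edgeR's prior degrees of freedom were infinite, so their p-values and counts of calls carry no spread of single genes. Scaling to pan-neuronal genes gave 587 higher genes over all tested genes and a median of -4.67 over the 9 genes, under which Gpr37 passed. The same scaling with limma-voom, chosen after seeing the data, gave 584 higher genes, a median of -4.67 and Gpr37 at -0.48 (adjusted p = 0.00841), with prior degrees of freedom of 221.6 against 11.7 in limma-voom with TMM. Leaving out single libraries gave 1208 to 2470 higher genes and medians of the 9 genes from -4.58 to -4.33. The Gpr37 value ranged from -0.48 to -0.24, with adjusted p from 0.00818 to 0.395. The log2 fold change of Enpp6 ranged from -12.6 to -8.38 and that of Gpr17 from -9.23 to -8.03. With the replicate number as a block (replicate block), 2746 genes were lower and 1822 higher, and none of the calls of the 9 genes changed. Same-numbered libraries did not deviate together (r = -0.03 across genes). Whether they share a culture or a preparation is not stated, and so few libraries cannot settle it. The causes of these shifts were not tested. Few counts limit Enpp6, Gpr17 and Mobp in topotecan.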
